A study of Mus musculus with 4 samples.

Results

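The genes described here are the 5S and 5.8S ribosomal RNA genes of the mouse, in RNA of Lewis lung carcinoma tumours and of the exosomes those tumours released. Members were chosen by annotation and by their summed counts. Every gene with the GENCODE biotype rRNA on the assembly GRCm38, mitochondrial ribosomal RNA excepted, was taken if it had at least 1 count over the 4 libraries. This gave 92 of 47069 gene IDs, and of 354 genes with that biotype the other 262 were at 0 in every library. Of the 92, 87 were 5S genes, 1 was a 5.8S gene and 4 belonged to neither family. Within this biotype the sum over all libraries alone chose the members, and the rule did not use the difference between exosomes and tumour. The choice was made with earlier results of these data known. At the edge of the rule, 8 members had 1 count in all and 7 had 2.

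Lewis lung carcinoma (LLC) is an established line of mouse lung cancer cells. All 4 libraries come from LLC tumours grown under the skin of C57BL/6 mice and taken 3 weeks after inoculation, and no library comes from an animal without a tumour or from tumour-free tissue. The tumour group is 2 libraries of RNA from the primary tumour. The exosome group is 2 libraries of RNA from vesicles shed by cut pieces of tumour over 12 h in medium without serum, passed through a 0.2 µm filter and collected with a precipitation reagent (ExoQuick-TC). No ultracentrifugation was used for the RNA samples, and a tumour piece holds host cells beside the carcinoma cells. The labels call the libraries replicates 1 and 2 of each group without naming the animals they came from. Every p-value therefore rests on 2 libraries a group, whose spread may be technical. The tests across genes also draw on the spread of the other genes tested. The comparison asks how the RNA content of the vesicles differs from that of the tissue they came from.

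5S ribosomal RNA is a small RNA of the large ribosomal subunit. RNA polymerase III makes it from many short gene copies, guided by promoter elements inside the gene itself, and before it enters the subunit it is held in a particle with the ribosomal proteins L5 and L11. 5.8S ribosomal RNA belongs to the same subunit but has another origin, since RNA polymerase I makes it as part of the long precursor that also holds the 18S and 28S RNAs, and it stays paired to 28S in the ribosome. A mature ribosome holds both RNAs in equal number.

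Of the 87 5S genes, 51 lay in a tandem array on chromosome 8 (chr8:123538786-123623745, GRCm38), an 84.96 kb stretch in which every annotated copy had counts. All 51 were on the minus strand, with starts 1665 to 1727 bases apart (median 1697.5), and all lay inside an intron of Gm20388, a protein-coding gene of the opposite strand. The other 36 were scattered, and in all 18 chromosomes held a 5S member. In the array, 32 copies, Rn5s (chr8:123598158-123598276) among them, shared 1 sequence of 119 bases, here called the common sequence. Copies are named below by how they differ from the common sequence in the GENCODE M21 transcripts. In each such name the base of the common sequence comes first, then its position, counted from 1 at the 5′ end of the common sequence, then the base of the copy. n-R5s112, n-R5s120 and n-R5s125 carry C44T alone, n-R5s136 carries T33C alone, and Gm24312, n-R5s106, n-R5s118 and n-R5s130 carry T62A alone. Gm23647 and Gm24089 are 109 bases long, 10 fewer than the common sequence. The most abundant copy outside the array, n-R5s33, carries C26T, C30T, G59A and G64A.

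The libraries differed widely in depth. The exosome libraries held 305751 and 217201 gene counts and the tumour libraries 14543691 and 10849811, so 1 count stood for 3.27 or 4.60 CPM in exosomes and for 0.0688 or 0.0922 in tumour. Replicates of a group differed from each other by more than counting error. Of 56 marker genes in 10 lists, 26 and 24 had a count in exosome 1 and exosome 2, and 35 had one in each tumour library. Of the 6 markers of epithelial and carcinoma cells, Epcam, Krt8, Krt19 and Cdh1 were at 0 in both exosome libraries, and Epcam, Krt19 and Cdh1 were at 0 in both tumour libraries too. Krt18 had 1 and 1 counts in exosomes and 11 and 4 in tumour, and Vim had 33 and 18 against 153 and 81. Of 7 genes for exosome proteins, Cd63, Cd81, Tsg101 and Flot1 were at 0 in both exosome libraries, which is a statement on their messenger RNA and not on the proteins. Summed shares of all 10 marker lists were higher in both exosome libraries than in both tumour libraries (0.0572% and 0.0843% against 0.0157% and 0.0114% over all 56 genes), on a scale where the median tested gene was also higher, by 2.75 on the log2 scale, and the part of cell mixture in the results was not tested. Some lists rested on few counts, since T and natural killer cells had 1 and 2 and B and plasma cells 1 and 1 in the exosome libraries. In such bulk libraries, fewer cells or vesicles of a type and less RNA in each cannot be told apart.

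5S RNA took up a far larger part of the exosome libraries than of the tumour libraries. Summed 5S counts were 42583 in exosome 1 and 37455 in exosome 2, or 13.9% (exact Clopper-Pearson 95% interval 13.8 to 14.1) and 17.2% (17.1 to 17.4) of all gene counts. In tumour 1 and tumour 2 they were 53368 and 36659, or 0.367% (0.364 to 0.370) and 0.338% (0.334 to 0.341). The groups did not overlap. The mean was 15.6% ± 2.35 (SD, n = 2) in exosomes and 0.352% ± 0.0206 (SD, n = 2) in tumour, a 44.2-fold difference in share. Intervals cover counting error only, since the reads were amplified and carry no molecular identifiers.

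Counts of 5.8S went the other way. They are those of 1 gene, n-R5-8s1 (148 bases, on chromosome 18, bases 73533403 to 73533550, minus strand). It overlaps no other gene, so no annotated precursor holds it, and Rn18s, Rn28s1 and Rn45s were not among the gene IDs. n-R5-8s1 had 16 and 20 counts in the exosome libraries and 3415 and 1583 in the tumour libraries. As a share of all counts this was 0.00523% (95% interval 0.00299 to 0.00850) in exosome 1 and 0.00921% (0.00562 to 0.0142) in exosome 2. The share was 0.0235% (0.0227 to 0.0243) in tumour 1 and 0.0146% (0.0139 to 0.0153) in tumour 2. Both exosome values lay below both tumour values, but the interval of exosome 2 reached up to that of tumour 2. The mean share was 0.00722% ± 0.00281 (SD, n = 2) in exosomes and 0.0190% ± 0.00629 (SD, n = 2) in tumour.

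**Figure D1:**
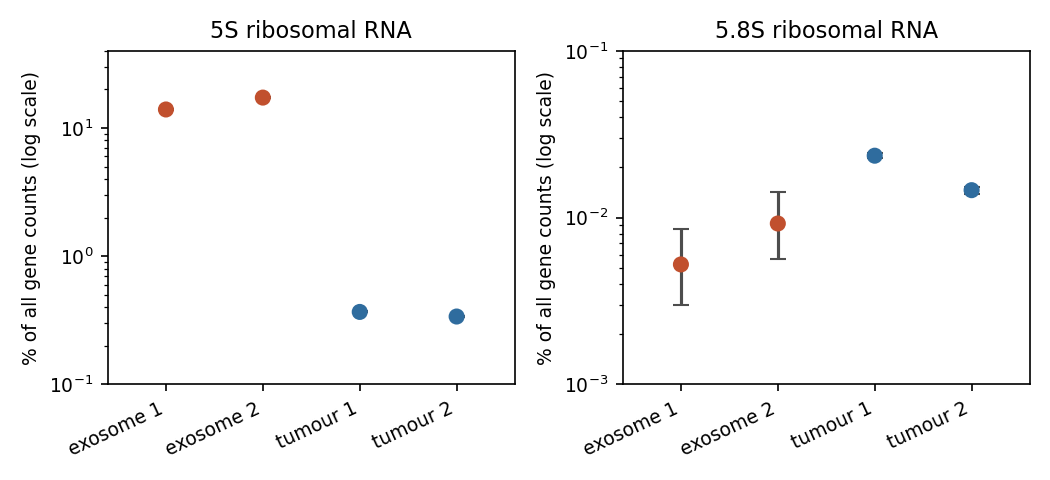
Share of all gene counts (percent, log scale) taken by 5S genes together and by the 5.8S gene in each of the 4 libraries, with exact 95% intervals that are narrower than the point where none is seen. 5S lies at 13.9% and 17.2% in the exosome libraries and at 0.367% and 0.338% in tumour, while 5.8S lies lower in both exosome libraries than in both tumour libraries.

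The balance of 5.8S and 5S counts does not depend on any scaling to other genes. For every 1000 5S counts there were 0.376 and 0.534 counts of 5.8S in the exosome libraries, and 64.0 and 43.2 in the tumour libraries. On the log2 scale the ratio was −11.12 ± 0.36 (SD, n = 2) in exosomes and −4.25 ± 0.40 (SD, n = 2) in tumour, a difference of −6.87, or 117-fold less 5.8S for each 5S in exosomes. The exact two-sided permutation test gave p = 0.333, the smallest value that 2 libraries against 2 can give. These are ratios of counts and not of molecules.

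Tests across genes were run with edgeR's quasi-likelihood test on the whole table, with trimmed mean (TMM) scaling and Benjamini-Hochberg adjustment over 1442 genes. All differences below are log2, exosomes minus tumour. TMM sets the typical gene near 0 (median of all tested genes 0.02), whereas scaling to library totals leaves that median at 2.75, so the direction of a small difference can turn with the scaling. As 1 summed feature, 5S was higher in exosomes by 2.76 (SE 0.19, edgeR adjusted p = 1.4e-09) with TMM and by 5.47 with library totals. 5.8S was lower, at −4.14 (SE 0.32, edgeR adjusted p = 5.98e-09) with TMM and −1.44 with library totals. The 5.8S call was lost with limma on the deposited FPKM (−1.41, adjusted p = 0.0573). It was also lost with tumour libraries thinned to exosome depth (−0.42, edgeR adjusted p = 0.379), where the median of the 257 features left was 2.61. The 5S call held under all 18 alternatives, with values from 1.52 to 6.11. These ends come from fits with unlike medians of all features, −1.85 without a filter on low counts and 2.61 with thinned libraries.

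Gene by gene, 63 of the 92 members passed the filter on low counts and were tested. A single count reaches the CPM cut of this filter in an exosome library but not in a tumour library. A gene with few counts can thus enter through its exosome counts alone. With TMM, 50 of them were called higher in exosomes, where 16% of all tested genes were, and 9 were called lower, where 22.1% of all tested genes were. The median over the tested members was 2.67. With library totals 61 members were called higher against 63.8% of all tested genes, and 1, n-R5-8s1, was called lower against 11.5%. The 50 members that were higher with TMM were all higher with library totals, but 7 of the 9 lower ones were then called higher. Many of these calls are not separate results, since the copies share sequence. With members of identical sequence summed, 23 sequences were tested, of which 13 were higher, where 14.6% of all features of that fit were, and 5 were lower, a share close to the 22.1% of all features.

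**Figure D2:**
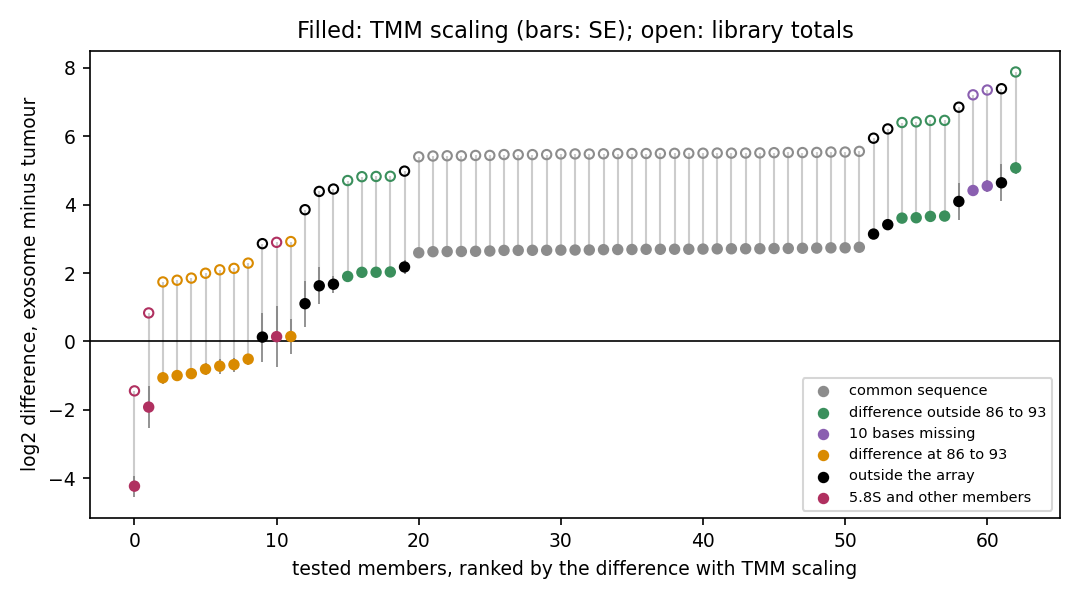
Log2 difference, exosomes minus tumour, for the 63 tested members ranked by their value with TMM scaling (filled points, bars are the SE) and with scaling to library totals (open points), coloured by sequence group. The 32 copies of the common sequence form a flat line between 2.59 and 2.76 with TMM, and the points that lie below 0 with TMM lie above 0 with library totals, all but n-R5-8s1.

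The 32 copies of the common sequence carried most 5S counts, and their counts were nearly equal. They held 72.6% and 72.8% of 5S counts in the exosome libraries and 71.7% and 71.2% in the tumour libraries. A copy had 866 to 1031 counts in exosome 1 (median 971.5) and 788 to 925 in exosome 2 (median 849.5). In tumour 1 a copy had 1127 to 1259 counts (median 1194), and in tumour 2 it had 763 to 849 (median 814.5). The variance between copies was 1.34, 1.19, 0.755 and 0.536 times their mean in exosome 1, exosome 2, tumour 1 and tumour 2, where counting error alone gives 1. Which of the 32 copies a read came from cannot be told from its sequence, and the sources used here do not give the rule by which such reads were counted. The differences of these copies ran from 2.59 to 2.76 with TMM and from 5.40 to 5.56 with library totals. Rn5s, with 993 and 825 counts in exosomes and 1217 and 824 in tumour, stood for them at 2.66 (SE 0.14, edgeR adjusted p = 1.47e-06). Of the 6 5S copies of highest mean share, n-R5s33 came first and has another sequence, and the other 5, n-R5s105, n-R5s139, n-R5s133, n-R5s128 and n-R5s144, carry the common sequence.

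The copies that differ from the common sequence did not keep the same balance in the vesicles as in the tumour. Their counts are given here relative to the mean of the 32 common copies in the same library, which sets exosome and tumour libraries on one scale without other genes. The groups of copies by the place of their differences were formed after these values were seen, so the levels are a description. A read that does not cover a difference matches the common copies as well, and how such reads were counted is not given. The levels are therefore of counts, and the part of read coverage in them was not tested.

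Array copies with C44T, with T33C or with 10 bases missing had nearly as many counts as a common copy in exosomes and far fewer in tumour. The 3 copies with C44T stood at 0.919 and 0.917 of a common copy in the exosome libraries and at 0.455 and 0.489 in the tumour libraries. For n-R5s136, with T33C, the levels were 1.07 and 0.957 in exosomes and 0.515 and 0.557 in tumour. n-R5s109, with C39T and C44T and a further difference G99A, stood at 0.850 and 0.914 in exosomes and at 0.180 and 0.155 in tumour. The 2 copies of 109 bases, Gm23647 and Gm24089, stood at 0.919 and 0.952 in exosomes and at 0.281 and 0.257 in tumour. In each of these 4 sequences both exosome libraries lay above both tumour libraries. They were grouped after these levels were seen, so this order is not separate support. It is not particular to them, since exosome and tumour levels did not overlap in n-R5s33, n-R5s194, n-R5s2 and n-R5s71, outside the array, either. In n-R5s2 and n-R5s71 the tumour levels were the higher.

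Array copies that differ between bases 86 and 93 showed the opposite. n-R5s102, which differs from the common sequence only by G89T, A90T and G93C, stood at 0.0787 and 0.0986 of a common copy in exosomes and at 0.802 and 0.827 in tumour. With T2C added, n-R5s101 and n-R5s129 stood at 0.0569 and 0.0687 in exosomes and at 0.720 and 0.712 in tumour. With G1A and T2C added, n-R5s114, n-R5s119 and n-R5s131 stood at 0.0497 and 0.0650 in exosomes and at 0.694 and 0.683 in tumour. n-R5s115, which carries C3A and G86A in place of these, stood at 0.0507 and 0.0658 in exosomes and at 0.681 and 0.626 in tumour. n-R5s127, which has the 5 differences of n-R5s131 and C34A, T35A and C36A besides, was rare in both, at 0.00414 and 0.0106 in exosomes and 0.0476 and 0.0343 in tumour. Together these 8 array copies gave 383 and 432 counts in the exosome libraries, 0.899% and 1.15% of 5S, and 6043 and 4043 in the tumour libraries, 11.3% and 11.03% of 5S.

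A single base apart from both stretches gave another pattern. The 4 copies with T62A stood at 0.461 and 0.453 of a common copy in exosomes and at 0.719 and 0.758 in tumour, below the common sequence in both and lower in exosomes. Position alone does not order the copies in every case, since n-R5s109 differs at base 99 too and was close to the common sequence in exosomes.

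**Figure D3:**
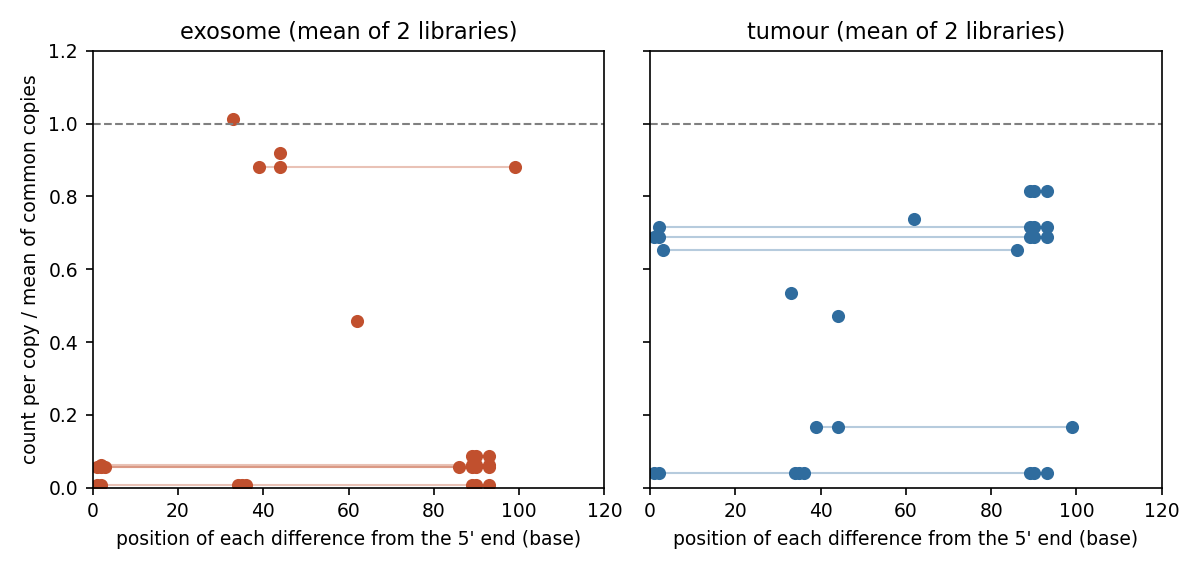
Level of each array sequence without missing bases relative to the mean of the 32 common copies (dashed line at 1), in exosomes and in tumour, against the positions of its differences from the common sequence in bases from the 5′ end. A line joins the differences of one sequence. In exosomes the sequences with differences at 86 to 93 lie below 0.10, whereas in tumour all but n-R5s127 lie above 0.6.

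Copies of each kind were interspersed along the 84.96 kb of the array. n-R5s101 near one end and n-R5s129 in the middle share a sequence, and had 56 and 54 counts in exosome 1, 45 and 72 in exosome 2, 839 and 883 in tumour 1 and 592 and 569 in tumour 2. Reads of copies with the same sequence cannot be assigned to a place, so these counts say nothing about the effect of position.

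**Figure D4:**
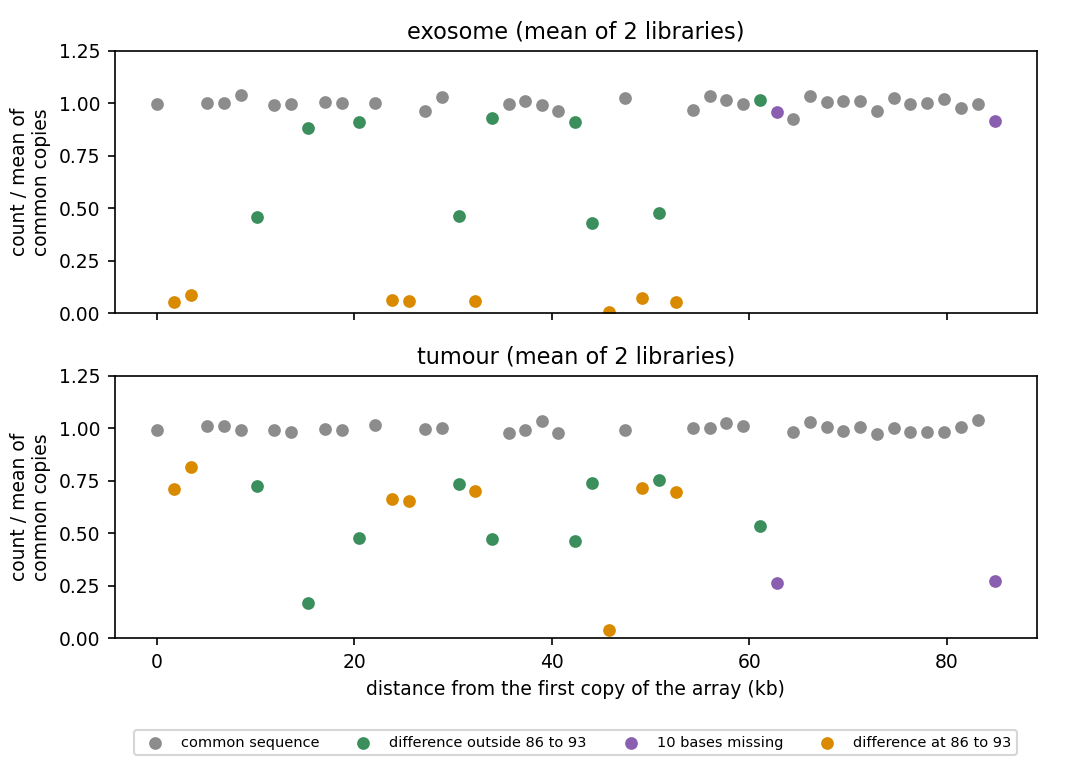
Count of each of the 51 array copies divided by the mean of the 32 common copies, against its distance from the first copy (kb), as the mean of 2 libraries in exosomes and in tumour, coloured by sequence group. Copies with a difference at 86 to 93 are near 0 in exosomes and mostly between 0.6 and 0.85 in tumour, and copies with a difference elsewhere or with 10 bases missing lie lower in tumour than in exosomes apart from the 4 with T62A.

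The differences within 5S were tested with the same edgeR fit scaled to the summed 5S counts of each library in place of TMM, a scaling added after the data were seen. Against this scale 60 5S genes were tested, of which 11 were higher in exosomes and 15 were lower. Over all tested genes 7.14% were higher and 78.7% lower on this scale, so a lower call is common for a gene outside the family. None of the 32 common copies was called, and their differences ran from −0.07 to 0.09. These copies held 71.2% to 72.8% of the 5S counts of each library. Their values near 0 are therefore largely set by the scaling and are not a result about them.

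Among the copies higher than the 5S sum, n-R5s109 had the largest difference. It had 821 and 778 counts in exosomes and 215 and 126 in tumour, so its raw counts too were higher in the exosome libraries. Its difference was 2.42 relative to 5S (SE 0.16, edgeR adjusted p = 3.11e-06) and 5.08 with TMM (SE 0.17, edgeR adjusted p = 1.86e-07). Gm24089, with 871 and 862 counts against 335 and 200, was higher by 1.88 relative to 5S (edgeR adjusted p = 1.38e-05) and by 4.55 with TMM. Gm23647, with 904 and 760 counts against 337 and 219, was higher by 1.75 relative to 5S and by 4.42 with TMM. n-R5s120, a C44T copy with 929 and 765 counts against 539 and 402, was higher by 1.01 relative to 5S (SE 0.14, edgeR adjusted p = 0.000312) and by 3.67 with TMM. These 4 genes were named for their large differences with TMM, so the order of their counts is not separate support. In all 4 genes both exosome counts exceeded both tumour counts, although the tumour libraries were far deeper.

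The 7 5S copies that TMM scaling called lower in exosomes all carry a difference at 86 to 93. n-R5s131 had 44 and 50 counts in exosomes and 859 and 552 in tumour, a difference of −1.06 with TMM (SE 0.18, edgeR adjusted p = 0.00197), 1.74 with library totals and −3.72 relative to 5S. n-R5s101 (56 and 45 counts against 839 and 592) was at −0.998 with TMM, 1.79 with library totals and −3.66 relative to 5S. n-R5s119 (54 and 49 against 836 and 573) was at −0.94, 1.85 and −3.60 on the same 3 scales. For n-R5s115 (49 and 56 against 815 and 510) the values were −0.81, 2.00 and −3.47. n-R5s114, n-R5s129 and n-R5s102 lay between −0.72 and −0.52 with TMM, between 2.095 and 2.29 with library totals and between −3.38 and −3.18 relative to 5S. As a share of all counts each of these copies was therefore higher in exosomes than in tumour, as library totals give it, and as a share of 5S it was lower. The TMM call of n-R5s102, n-R5s114, n-R5s115 and n-R5s129 was lost without tumour replicate 1 (−0.51, −0.70, −0.72 and −0.61) and under a filter of at least 10 counts in at least 2 libraries (−0.07, −0.28, −0.37 and −0.23). That of n-R5s102, n-R5s114 and n-R5s129 was lost without exosome replicate 1 (−0.34, −0.38 and −0.39), and that of n-R5s102 and n-R5s114 without tumour replicate 2 (−0.52 and −0.73). The relative call was made for all 8 array copies with a difference at 86 to 93, n-R5s127 included (4 and 9 counts against 57 and 28, −2.49 relative to 5S, edgeR adjusted p = 0.00121). The group was formed after its levels were seen, so its calls are not separate support. Copies in it with the same sequence cannot be told apart by their reads. Genes outside the array with a difference there went both ways. n-R5s28, with C91T, and n-R5s71, with C92T, were lower relative to 5S (−2.40 and −0.98, edgeR adjusted p = 0.00787 and 0.00641). n-R5s195, which carries A90G, was higher relative to 5S (2.08, edgeR adjusted p = 0.0120). It passed the filter on low counts only through the exosome libraries, where it was high, so its call is not support. n-R5s28 also passed through the exosome libraries alone.

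**Figure D5:**
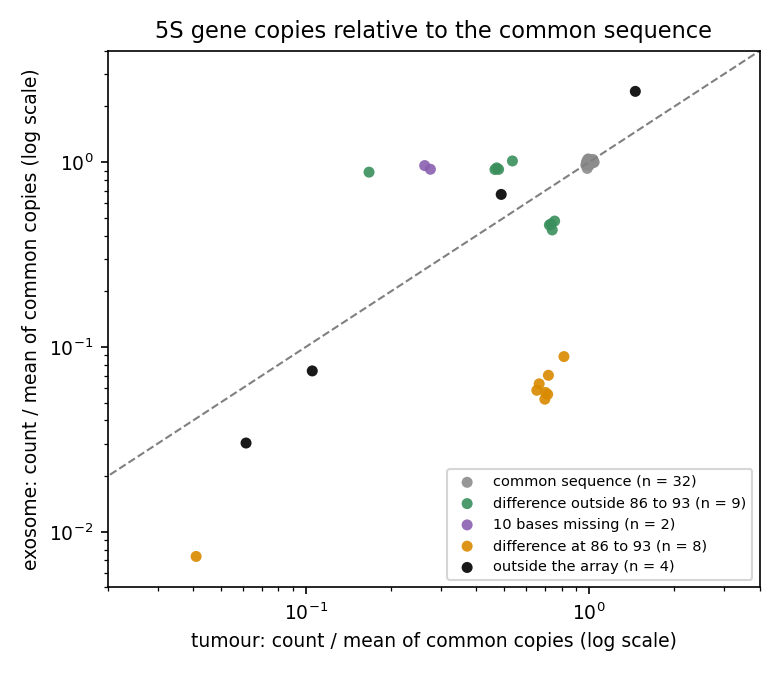
Level of 5S copies relative to the mean of the 32 common copies, in exosomes (vertical, log scale) against tumour (horizontal, log scale), each as the mean of 2 libraries, for the copies with 30 counts or more in all. The dashed line marks equal levels, the 8 array copies with a difference at 86 to 93 lie below it, and of the copies shown n-R5s109, Gm23647 and Gm24089 lie farthest above it.

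Outside the array, 36 genes shared 7.56% and 7.12% of 5S counts in the exosome libraries and 4.62% and 5.08% in the tumour libraries. A single gene, n-R5s33, made up most of this. It lies on chromosome 16 (chr16:33001903-33002021, plus strand), in an intron of Lrch3 on the same strand and of Gm17106 on the opposite one. It had 2419 and 1975 counts in exosomes and 1671 and 1234 in tumour, in raw counts more than any other member in every library bar n-R5-8s1 in the tumour, and 2.50, 2.32, 1.40 and 1.51 times a common copy in exosome 1, exosome 2, tumour 1 and tumour 2. It was higher in exosomes by 3.42 with TMM (SE 0.15, edgeR adjusted p = 5.29e-07), by 6.22 with library totals and by 0.75 relative to 5S (edgeR adjusted p = 0.00139). n-R5s194 (chr3:4338998-4339116), with 651 and 564 counts against 522 and 442, was higher by 3.14 with TMM and by 0.48 relative to 5S (edgeR adjusted p = 0.0193).

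2 other scattered genes had 30 counts or more in all. n-R5s2 (chrX:6106891-6107009), with 65 and 69 counts in exosomes and 120 and 90 in tumour, was at 2.18 with TMM and −0.48 relative to 5S (edgeR adjusted p = 0.0419). n-R5s71 (chr11:74319792-74319910), with 30 and 25 counts against 65 and 56, was at 1.67 with TMM and −0.98 relative to 5S (edgeR adjusted p = 0.00641). Both thus rose against the typical gene and fell against the 5S sum. The other 32 scattered genes each had under 30 counts in all. The tested ones with the fewest counts, 15 in all, passed the filter on low counts only through their exosome counts. n-R5s195, with 5 and 7 counts against 2 and 1, had a difference of 4.64 with TMM (SE 0.55, edgeR adjusted p = 0.000244). It was high in the group that let it pass, so this call is not support. n-R5s28, with 1 and 1 counts against 9 and 4, was not called with TMM (0.13, SE 0.72, edgeR adjusted p = 0.954) but was lower relative to 5S (−2.40, edgeR adjusted p = 0.00787). The untested one with the most was n-R5s211, with 5 and 3 counts against 4 and 2. The 27 untested 5S genes had 1 to 14 counts each.

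4 members belonged to neither family. Gm24601 on chromosome 6 came closest to 5.8S, with 77.9% identity to n-R5-8s1, just outside the rule of 80%. It had 2 and 2 counts in exosomes and 77 and 34 in tumour, a difference of −1.92 with TMM (SE 0.61, edgeR adjusted p = 0.0427) that turned to 0.83 with library totals and fell short of the threshold without exosome replicate 1 (−1.82), exosome replicate 2 (−2.04) or tumour replicate 1 (−1.51). It was also short of the threshold with DESeq2 (−2.02, adjusted p = 0.0722) and under a filter of at least 10 counts in at least 2 libraries (−1.48, edgeR adjusted p = 0.0986). CT010467.1 on chromosome 17 overlaps exons of Gm42418 on the opposite strand and of AY036118 on its own, so its counts are uncertain. It had 1 and 4 counts against 26 and 7 and was not called with TMM (0.14, SE 0.90, edgeR adjusted p = 0.950), but was called higher with library totals (2.90, edgeR adjusted p = 0.00548). Gm25712 had 3 and 1 counts in exosomes and 0 in tumour, and Gm25625 had 1 count, in tumour 1.

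The genes listed as partners of 5S were hardly measured in exosomes. The list holds 27 genes tied to the particle with L5 and L11 or to transcription by RNA polymerase III, Mdm2 and Maf1 included. Of these, 12 and 7 had a count in the exosome libraries and 23 and 19 in the tumour libraries. Only Rpl5 and Rpl11 passed the filter on low counts, whose CPM cut a single count reaches in an exosome library but not in a tumour library. Ssb, with 2 and 0 counts against 19 and 11, did not pass. Rpl5, with 4 and 1 counts against 36 and 30, was at −0.90 (edgeR adjusted p = 0.315), and Rpl11, with 1 and 2 counts against 16 and 11, was at −0.33 (edgeR adjusted p = 0.820) with TMM. With library totals both were called higher in exosomes (1.86 and 2.42), as were 63.8% of all tested genes, and both lay below the median of 2.75.

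Of the genes that make and process the 5.8S precursor, 10 of 62 gene IDs were tested, of which TMM called 1 higher and 2 lower, beside 16% and 22.1% of all tested genes. Library totals called 7 higher and 1 lower, beside 63.8% and 11.5%, so these counts are near the background. Their median was −0.56 with TMM, beside 0.02 over all tested genes. Rmrp, the RNA of the ribonuclease MRP that cuts the precursor ahead of 5.8S, had 3346 and 2212 counts in exosomes and 396 and 230 in tumour. It was higher by 5.98 (SE 0.22, edgeR adjusted p = 2.68e-07), more in raw counts in both exosome libraries despite their low depth. Snord118, the U8 small nucleolar RNA needed to release 5.8S and 28S, had 105 and 92 counts against 3425 and 1839. It was at −1.88 with TMM (SE 0.18, edgeR adjusted p = 7.43e-05) and at 0.91 with library totals. Snord13, the U13 small nucleolar RNA, had 1 and 1 counts against 888 and 664 and was lower on both scales, at −6.74 and −3.99.

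Other ribosomal RNA genes, which are not members, were lower in exosomes with TMM. The mitochondrial RNA mt-Rnr1 had 22 and 17 counts against 4913 and 2869 and was at −4.79 (SE 0.21, edgeR adjusted p = 5.29e-07), and mt-Rnr2, with 77 and 65 against 22031 and 14932, was at −5.19. Both were lower with library totals too, at −2.01 and −2.40. Gm26917, a noncoding gene listed beside the ribosomal RNA loci, had 1886 and 1573 counts against 136452 and 89652 and was at −3.20 with TMM, but was not called with library totals (−0.40, edgeR adjusted p = 0.0711).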

How the data were processed

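RNA of 2 exosome and 2 tumour libraries was measured by adaptor ligation, amplification, gel selection and sequencing, per the labels' protocols. The table gives counts and FPKM for every gene and library, per the file headers. The deposited counts are whole numbers without normalization, and the deposited FPKM are relative to gene length and library total. TopHat2 2.0.9, Cufflinks 2.1.1, Cuffdiff and GRCm38.p4 are named in the submitters' processing notes. For the annotation, the strand setting, the counting tool and its rule for reads that match several places, nothing is given in the sources used here.

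Names, biotypes and transcripts came from GENCODE M21 (46574 of 47069 gene IDs matched). 5S members had the symbol Rn5s or n-R5s (73), or at least 80% identity over 80% of the longer sequence to the common transcript (14, Biopython 1.88). edgeR 4.0.16 (R 4.3.3) tested the counts by its two-sided quasi-likelihood test, with group alone in the model and TMM. filterByExpr (minimum count 10, minimum total 15) kept genes at 1.79 CPM or more in at least 2 libraries. A single count is 3.27 or 4.60 CPM in an exosome library and 0.0688 or 0.0922 in a tumour library. P-values were adjusted over 1442 genes at 0.05. TMM gave the exosome libraries factors of 2.41 and 2.93, and the tumour libraries 0.388 and 0.365. Summed families were refitted with the whole table (1383 features). The SE is the absolute difference divided by the square root of F. The script was tested on simulated counts.

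Members and lists were chosen with earlier results of these data known. Named were the 6 5S copies of highest mean share, the 4 tested copies with the largest and the 4 with the lowest difference (where each library of the group with more had 10 counts or more), all members called lower, 5.8S, other members with at least 10 counts, Rn5s, members nearest the filter, and up to 3 called genes per list. Further copies were named after their values were seen. Alternatives were DESeq2 1.42.0, other scalings and filters, limma 3.58.1 on log2 FPKM with pseudocounts of 1 and 0.1, a replicate block, thinned tumour libraries and each library left out. Summing identical sequences and scaling to 5S were added after seeing the data. The sequences of the genes are not reported here.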

Additional observations from a re-analysis of the deposited data

How the results depend on the processing

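Summed 5S stayed higher in exosomes and past the threshold under all 18 alternatives, from 1.52 without a filter on low counts to 6.11 with tumour libraries thinned to exosome depth. The medians of all features in these fits were −1.85 and 2.61, so their values, that of 5.8S included, have unlike zero points. Its log2 share ratio (5.47) was 5.71 with the mean count per copy and 5.06 without small nuclear, small nucleolar and ribozyme RNAs in the total. Summed 5.8S stayed lower, but short of the threshold with limma on log2(FPKM + 1) (−1.41, unadjusted 0.0409, adjusted p = 0.0573), limma on log2(FPKM + 0.1) (−1.41, unadjusted 0.0433, adjusted p = 0.0548) and thinned libraries (−0.42, adjusted p = 0.379). Members called higher numbered 47 to 61 (50 in the report), and 13 with identical sequences summed, while the share of all tested genes called higher was 14.3% to 16.9% in most of these fits, 1.49% without a filter, 54.0% with thinned libraries, 57.6% and 67.8% with limma and 63.8% with library totals. Members called lower (9, beside 22.1% of all tested genes) were 1 with library totals (11.5%) and 4 with at least 10 counts in at least 2 libraries (25.8%). They were 0 with either limma fit (11.9% and 11.2%), 1 with thinned libraries (38.9%) and 5 with identical sequences summed (22.1%). Some of these calls were also lost with a library left out. The copies called relative to 5S stayed within 8 to 11 higher and 11 to 16 lower, where 7.14% and 78.7% of all genes were called in the main fit on that scale. The causes were not tested.

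Directions turned for single genes, given here with library totals, limma with pseudocount 1, limma with pseudocount 0.1 and thinned libraries in that order. The medians of all tested genes under these were 2.75, 0.75, 2.02 and 2.29. n-R5s131 gave 1.74, 1.73, 1.73 and 0.65. n-R5s101 gave 1.79, 1.79, 1.80 and 0.75. n-R5s119 gave 1.85, 1.85, 1.86 and 0.62. n-R5s115 gave 2.00, 1.98, 1.99 and 0.81. n-R5s102 gave 2.29, 2.27, 2.28 and 0.81. n-R5s129 gave 2.14, 2.098, 2.1001 and 0.73. n-R5s114 gave 2.095, 2.04, 2.04 and 0.82. Under the first 3 of these, Gm24601 gave 0.83, 0.91 and 0.93 and Snord118 gave 0.91, 0.93 and 0.93. CT010467.1 gave −1.03 without a filter and −1.27 (without exosome replicate 2) to 1.04 with a library left out, −0.31 without tumour replicate 2.

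With the replicate number as a block, 50 members were called higher and 9 lower, beside 16.9% and 23.9% of all tested genes. In that fit 5S was at 2.76, 5.8S at −4.11, and 11 and 14 copies were called higher and lower relative to 5S. Deviations of same-numbered libraries had r = −0.02 over 1442 genes and −0.53 over the 63 tested members (2 pairs), and the numbers were not taken to pair the libraries. A count of 0 allows up to 3 counts, which are 0.000981% and 0.00138% of the exosome libraries.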
